A study of Mus musculus with 27 samples.

Results

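The genes for the replacement histone variants were followed in embryos that lack active DNMT3B. They are H1f0, H2afj, H2afv, H2afx, H2afy, H2afy2, H2afz, H3f3a and H3f3b, 9 of the 24065 genes in the RNA-Seq table, and they were taken from the table by their symbols. All 9 had enough counts to be tested. Whole embryos at embryonic day 8.5 (E8.5) of the C57BL/6J strain were compared, 3 WT and 3 Dnmt3b-/- littermates from matings of heterozygous parents, with 1 library of total RNA, depleted of ribosomal RNA, for each embryo. The Dnmt3b-/- allele encodes no catalytically active enzyme and came from the Dnmt3b-2lox line crossed with the ACTB-Cre deleter line, so the deletion is constitutive and not restricted to a tissue. The labels name no other allele and no treatment that distinguished the groups.

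Histones package DNA into nucleosomes. The canonical histones are made in S phase from many intronless genes, most of which sit in clusters, and their transcripts end in a stem loop in place of a poly(A) tail. Replacement variants are made throughout the cell cycle, mostly from single genes with polyadenylated transcripts, and are put into chromatin by dedicated chaperones outside of replication. H3f3a and H3f3b encode the same protein, H3.3. H2afz and H2afv encode the 2 forms of H2A.Z, H2afy and H2afy2 encode macroH2A, H2afx encodes H2A.X, which is phosphorylated around DNA breaks, H2afj encodes H2A.J and H1f0 encodes the linker histone H1.0. DNMT3B is a de novo DNA methyltransferase that is active in the embryo around implantation.

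Whether these 9 transcripts end like those of replication-dependent genes was read from the RefSeq transcripts (GRCm38.p6). The stem loop motif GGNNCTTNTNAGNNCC was searched on the sense strand. It was found in 1 of the 9 members, H2afx, against 52 of 55 tested clustered histone genes (94.5%) and 125 of the 15057 tested genes with an annotation (0.83%). The sites are printed 5′ to 3′ with the motif in capitals, for H2afx and for the clustered genes whose values are given below, Hist4h4 being the neighbour of H2afj.
H2afx, chr9:44335235-44335260, plus strand: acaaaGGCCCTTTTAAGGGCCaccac
Hist2h2bb, chr3:96270166-96270191, plus strand: caaaaGGCTCTTTTCAGAGCCacttt
Hist1h4d, chr13:23581945-23581969, plus strand: ccaaaGGCCCTTTTCAGGGCCacta
Hist1h2ak, chr13:21753377-21753402, minus strand: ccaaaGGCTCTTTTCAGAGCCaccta
Hist1h4i, chr13:22040961-22040986, minus strand: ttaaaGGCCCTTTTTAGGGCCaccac
Hist1h4j, chr13:21735432-21735456, plus strand: ctaaaGGTCCTTTTCAGGACCacca
Hist4h4, chr6:136803993-136804018, minus strand: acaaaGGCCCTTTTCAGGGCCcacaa
In the 6 clustered genes the motif ended 4 to 6 bases before the end of the transcript. In H2afx it ended 822 bases before the end of the annotated transcript of 1363 bases, so the RefSeq model continues past the site. The poly(A) signal AATAAA or ATTAAA was present in the last 50 bases of a transcript in 8 of the 9 members, H2afx included and H2afy excepted, in 5 of the 55 clustered genes (9.09%) and in 80.7% of all tested genes. H2afx, H2afj and H1f0 have 1 exon, as clustered histone genes do, H3f3a and H3f3b have 4 exons at most, H2afz and H2afv 5, and H2afy and H2afy2 9.

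The promoters of 8 members were held in the RefSeq table, from 250 bases before to 50 bases after the start given there. The windows of H3f3b and H2afy2 lie inside the gene spans used for the exons, which begin further upstream, at chr11:116026039 and chr10:61784604. The promoters of 2 members that fell and of both H3.3 genes, which were not called, are printed on the sense strand, with CCAAT or its complement ATTGG in capitals.
H2afj, chr6:136807998-136808297, plus strand: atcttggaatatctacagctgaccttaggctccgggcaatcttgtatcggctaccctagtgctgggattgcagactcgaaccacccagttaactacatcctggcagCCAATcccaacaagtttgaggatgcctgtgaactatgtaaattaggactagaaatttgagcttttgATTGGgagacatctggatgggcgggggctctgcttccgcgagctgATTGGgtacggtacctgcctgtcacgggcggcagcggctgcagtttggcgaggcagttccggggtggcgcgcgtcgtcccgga
H2afz, chr3:137864237-137864536, plus strand: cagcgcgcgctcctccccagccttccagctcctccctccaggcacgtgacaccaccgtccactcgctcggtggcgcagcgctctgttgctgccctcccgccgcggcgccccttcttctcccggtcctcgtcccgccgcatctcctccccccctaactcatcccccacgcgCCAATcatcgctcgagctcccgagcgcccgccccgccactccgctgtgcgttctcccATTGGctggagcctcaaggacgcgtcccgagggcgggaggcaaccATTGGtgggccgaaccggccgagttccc
H3f3a, chr1:180813556-180813855, minus strand: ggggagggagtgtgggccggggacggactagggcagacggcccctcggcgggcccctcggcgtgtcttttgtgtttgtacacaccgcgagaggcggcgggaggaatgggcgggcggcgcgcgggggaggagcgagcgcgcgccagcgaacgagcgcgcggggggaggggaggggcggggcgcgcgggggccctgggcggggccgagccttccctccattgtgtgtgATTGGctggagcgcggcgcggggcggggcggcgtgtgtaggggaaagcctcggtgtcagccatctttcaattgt
H3f3b, chr11:116024455-116024754, minus strand: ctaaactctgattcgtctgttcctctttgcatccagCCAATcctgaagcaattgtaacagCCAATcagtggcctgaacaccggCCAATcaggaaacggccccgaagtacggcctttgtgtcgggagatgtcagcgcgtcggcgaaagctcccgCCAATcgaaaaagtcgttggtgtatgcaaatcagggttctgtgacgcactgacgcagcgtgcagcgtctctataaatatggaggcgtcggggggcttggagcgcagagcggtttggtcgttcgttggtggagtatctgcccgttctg
The 4 promoters held 3, 3, 1 and 4 CCAAT letters, in the order printed, counted on both strands. At least 1 was found in 6 of the 8 member promoters, in 49 of 58 clustered histone promoters (84.5%) and in 37.9% of the 27025 promoters of the table, 1 for each gene. TATAAA, also searched on both strands, was found in 1 member promoter, that of H3f3b, in 33 of the 58 clustered promoters (56.9%) and in 14.2% of all. CpG dinucleotides numbered from 17 in H2afj to 39 in H3f3a, and the promoters of H2afz and H3f3b held 34 and 24. A match of this kind is a description of the letters and was not tested for binding of any factor. DNA methylation was not analysed here.

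The libraries held 41489332 to 58470286 counts on genes, and no embryo was left out. In the test across all 15114 genes (the quasi-likelihood test of edgeR with Benjamini-Hochberg adjustment) 35.7% passed the threshold of 0.05 on the adjusted p. Dnmt3b itself had 7263, 13960 and 6280 normalized counts in WT embryos and 4063, 4541 and 4740 in Dnmt3b-/- embryos, which gave a log2 change of -1.04 (SE 0.27, adjusted p = 0.0169 by edgeR); the counts cover all of its exons, the ones that were not deleted included. Without any 1 of the 3 Dnmt3b-/- embryos the adjusted p of Dnmt3b lay between 0.0555 and 0.0613. The size of its change rests in part on WT embryo 2, without which it was -0.61 (adjusted p = 0.0026 by edgeR). In whole embryos fewer cells of a type and less RNA per cell cannot be told apart. The summed level of 8 extraembryonic endoderm markers ranged from 427 to 3730 CPM (counts scaled to the library depth) in WT and from 235 to 854 in Dnmt3b-/- embryos. All 8 had negative log2 changes, from -2.594 to -0.865, and 1 was called, lower, where 18.1% of all tested genes were. The high end in WT came from WT embryo 2, where each of the 8 was highest. Apob had 87330 normalized counts there, against 27020 and 8085 in WT embryos 1 and 3. For 8 primitive erythroid markers, 1 of them at 0 in all embryos, the ranges were 253 to 1410 and 320 to 909. The low end in WT came from WT embryo 2 too, where Hbb-y had 449.7 normalized counts, against 11510 and 15570 in WT embryos 1 and 3. The trophoblast and decidua markers summed to 9.66 to 15.3 and 12.6 to 19.2 CPM, with 4 of 8 at 0. The part of these markers in the results was not tested. The 8 markers of the E8.5 embryo proper summed to 269 to 291 and 267 to 341.

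The members did not move as 1 group. The transcripts of H2A.X, H2A.J, H2A.Z (H2afz) and H1.0 fell in Dnmt3b-/- embryos, by 2.09-, 2.03-, 1.42- and 1.19-fold. H2afv, both macroH2A genes and both H3.3 genes were not called. Counted over the members, 4 of 9 were lower at an adjusted p below 0.05, where 18.1% of all tested genes were lower, and 0 of 9 were higher, where 17.6% of all were. With a fold change above 2 as well, 2 of 9 were lower and 0 higher, against 3.78% and 2.12% of all genes. The median log2 fold change of the 9 was -0.18, against -0.03 over all tested genes. With 9 genes these shares are coarse, and they are a description. The count of 0 higher members comes from edgeR, in which 1 of the 9 (H3f3a) was higher at an unadjusted p below 0.05, and DESeq2 called 1, also H3f3a. The values of the 6 embryos of 4 members did not overlap and lay lower in Dnmt3b-/- embryos, where 26.5% of all tested genes were so, and those of 1 member lay higher, where 25.3% were.

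**Figure D1:**
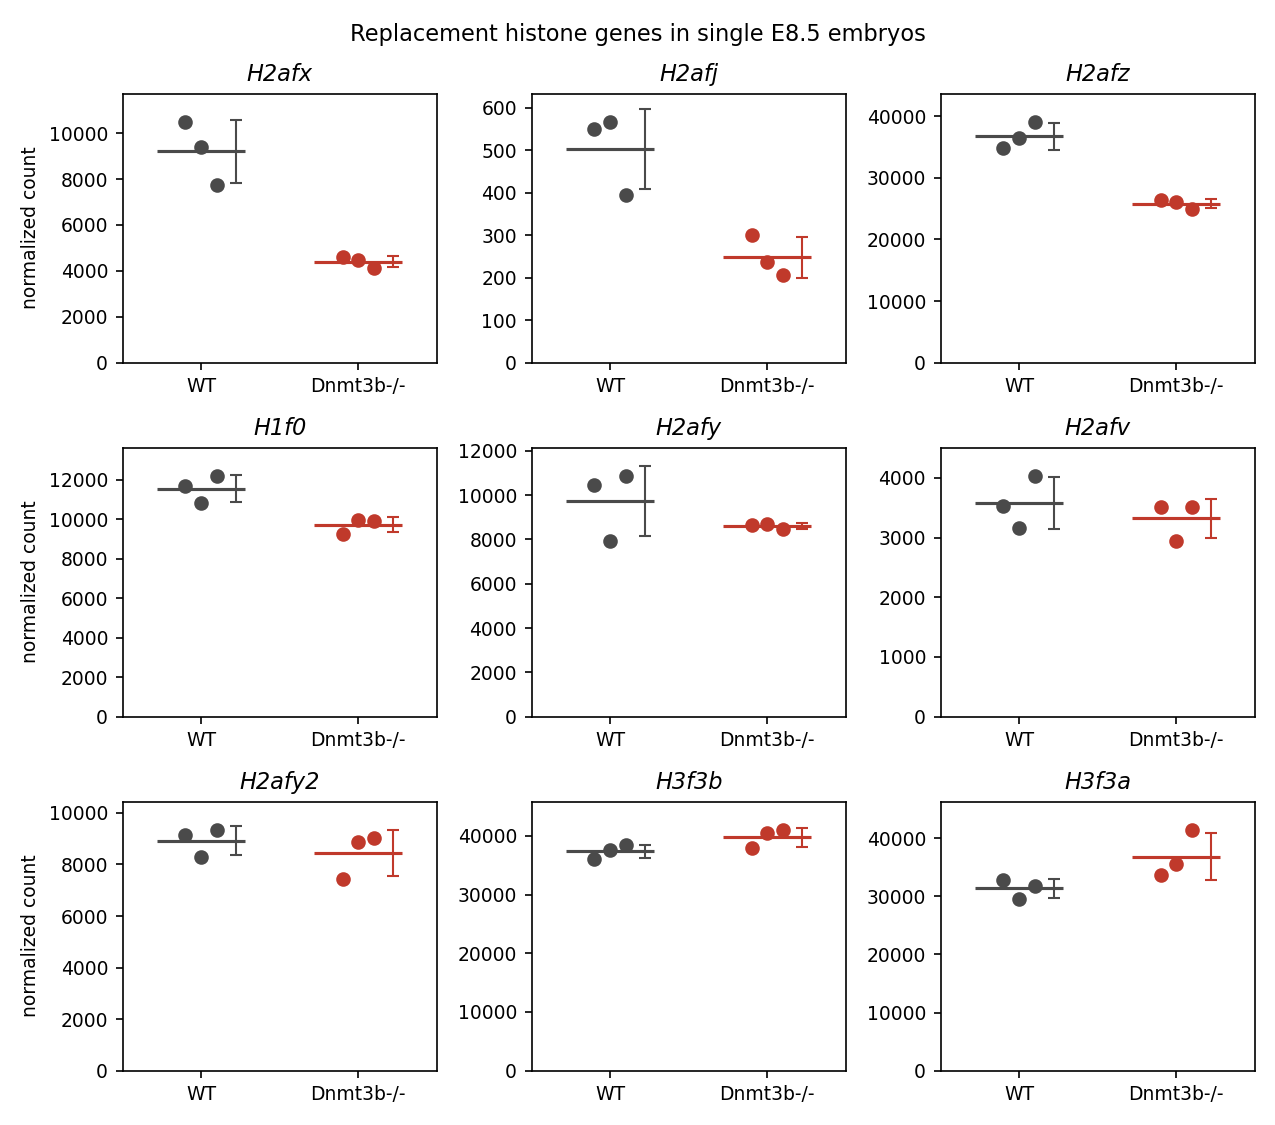
Normalized counts of the 9 replacement histone variant genes in each embryo, 3 WT and 3 Dnmt3b-/-, with the group mean as a horizontal line and the SD as an error bar beside it. The Dnmt3b-/- embryos lie below all WT embryos for H2afx, H2afj, H2afz and H1f0, and above them for H3f3a.

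H2afx (chr9:44334715-44336077, plus strand, GRCm38) had 10470, 9408 and 7725 normalized counts in WT embryos and 4609, 4469 and 4124 in Dnmt3b-/- embryos. The groups did not overlap, and the lowest WT embryo lay far above the highest Dnmt3b-/- embryo. The means were 9202 ± 1385 and 4401 ± 249.5 (SD, n = 3 each), and the log2 fold change was -1.06 (SE 0.11, adjusted p = 0.000688 by edgeR). H2A.X is the variant whose tail is phosphorylated next to DNA breaks. Of the windows of 75 bases in its exons 3.34% occur elsewhere in the genome.

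H2afj (chr6:136808248-136810074, plus strand) was the weakest transcript of the group, with 548.8, 565.3 and 394.3 normalized counts in WT embryos and 300.6, 236.1 and 206.7 in Dnmt3b-/- embryos. The groups did not overlap, and the third WT embryo was the one nearest to the Dnmt3b-/- values. The means of 502.8 ± 94.37 and 247.8 ± 48.02 (SD, n = 3 each) gave a log2 fold change of -1.02 (SE 0.21, adjusted p = 0.00656 by edgeR). Its fold change has the largest SE among the 9 genes. H2afj lies 3816 bases from Hist4h4, a clustered-type H4 gene that was looked up after the values were seen. Hist4h4 had 7446, 6451 and 7260 normalized counts in WT embryos and 1981, 1936 and 1481 in Dnmt3b-/- embryos, and its log2 change was -1.97 (SE 0.12, adjusted p = 0.000239 by edgeR). Both neighbours were lower. Their starts face each other, Hist4h4 on the minus strand and H2afj on the plus strand, so each transcript ends on the side away from the other gene. Whether their position has a part in the decrease was not tested. The count of members lower by more than 2-fold rests on H2afx and H2afj, which lie close to that threshold: it was 0 without WT embryo 1, and 1 without WT embryo 2, Dnmt3b-/- embryo 2 or Dnmt3b-/- embryo 3.

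H2afz (chr3:137864487-137866922, plus strand) was among the most abundant members, with 34780, 36380 and 39000 normalized counts in WT embryos and 26430, 26090 and 24950 in Dnmt3b-/- embryos. All 3 Dnmt3b-/- embryos lay below the lowest WT embryo. The means were 36720 ± 2134 and 25820 ± 773.4 (SD, n = 3 each), and the log2 fold change was -0.51 (SE 0.07, adjusted p = 0.00143 by edgeR). H2A.Z is found at promoters and is exchanged by ATP-dependent remodellers. Its paralog H2afv (chr11:6427226-6444511, minus strand) had 3531, 3156 and 4025 normalized counts in WT embryos and 3509, 2946 and 3515 in Dnmt3b-/- embryos. The H2afv groups overlapped, and the log2 fold change was -0.10 (SE 0.11, adjusted p = 0.491 by edgeR).

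The share of H2afz in the summed FPKM (fragment counts scaled to exon length and library depth) of H2afz and H2afv was 93.8, 94.6 and 93.7% in WT embryos and 92.0, 93.1 and 91.6% in Dnmt3b-/- embryos. The ranges did not overlap, and the log2 ratio of the pair differed by -0.41, with an exact two-sided permutation p of 0.1, the smallest that 3 against 3 allows, and 0.3 after adjustment over the 3 pairs compared. H2afz supplied the larger part of the H2A.Z transcripts in every embryo. Of the windows of 75 bases of H2afz, 79.3% occur elsewhere in the genome, against 0 for H2afv, and how reads with several matches were counted is not given in the sources used here. The H2afz counts are uncertain for that reason.

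H1f0 (chr15:79028212-79030504, plus strand) encodes the linker histone that accumulates in cells that stop dividing. It had 11660, 10830 and 12170 normalized counts in WT embryos and 9267, 9950 and 9926 in Dnmt3b-/- embryos. The groups did not overlap, although the gap between WT embryo 2 and the nearest Dnmt3b-/- embryo was narrow. The means were 11550 ± 674.9 and 9714 ± 387.8 (SD, n = 3 each), and the log2 fold change was -0.25 (SE 0.07, adjusted p = 0.0286 by edgeR). This call is the least firm of the 4. Leaving out WT embryo 1 or 3, or any 1 of the 3 Dnmt3b-/- embryos, moved the adjusted p to values from 0.0571 to 0.0903, and without WT embryo 2 it was 0.0214.

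The macroH2A genes encode H2A variants with a large extra domain, found on the inactive X chromosome and in repressed chromatin. H2afy (chr13:56073622-56135626, minus strand) had 10460, 7945 and 10850 normalized counts in WT embryos and 8648, 8707 and 8470 in Dnmt3b-/- embryos. WT embryo 2 lay below all Dnmt3b-/- embryos and the other WT embryos above them, so the groups overlapped. The log2 fold change of H2afy was -0.18 (SE 0.11, adjusted p = 0.254 by edgeR). Without WT embryo 2 it was -0.31 with an adjusted p of 0.0146 by edgeR, so that the missing call rests on that embryo. H2afy2 (chr10:61738640-61784604, minus strand) had 9156, 8289 and 9325 normalized counts in WT embryos and 7431, 8872 and 9035 in Dnmt3b-/- embryos. Those groups overlapped too, with a log2 fold change of -0.08 (SE 0.09, adjusted p = 0.542 by edgeR) that was 0.02 without Dnmt3b-/- embryo 1. An exon of H2afy2 overlaps one of Aifm2 on the opposite strand, and the strand setting of the counting is not given. The share of H2afy in the summed FPKM of the pair was 50.2 ± 2.67% and 48.8 ± 2.85% (SD, n = 3 each), and the log2 ratio differed by -0.08 (exact two-sided permutation p = 0.7).

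The 2 H3.3 genes were the members with positive fold changes. H3f3a (chr1:180802560-180813605, minus strand) had 32720, 29590 and 31820 normalized counts in WT embryos and 33640, 35510 and 41350 in Dnmt3b-/- embryos. No Dnmt3b-/- embryo overlapped the WT range, and all lay higher, the third by the most. The means were 31380 ± 1613 and 36830 ± 4020 (SD, n = 3 each), and the log2 fold change was 0.23 (SE 0.09, adjusted p = 0.0784 by edgeR). Without Dnmt3b-/- embryo 1 the adjusted p was 0.0313 by edgeR, so this missing call rests on 1 embryo as well.

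H3f3b (chr11:116021961-116026039, minus strand) had 36140, 37510 and 38430 normalized counts in WT embryos and 37880, 40410 and 40940 in Dnmt3b-/- embryos. The groups overlapped, and the log2 fold change was 0.09 (SE 0.07, adjusted p = 0.321 by edgeR). The share of H3f3a in the summed FPKM of the 2 genes was 62.4, 59.1 and 60.3% in WT embryos and 62.0, 61.7 and 65.0% in Dnmt3b-/- embryos. The log2 ratio of the pair differed by 0.14 (exact two-sided permutation p = 0.3, and 0.45 after adjustment over the 3 pairs). Of the windows of 75 bases of H3f3a 79.7% occur elsewhere in the genome, and of H3f3b 23.1%, but no window is shared between the 2 genes. Their counts therefore carry the same reservation as those of H2afz.

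The members differed widely in level, and levels between genes are given per length. In WT embryos H2afz had 715.6 ± 41.58 FPKM, H3f3a 601.9 ± 30.94, H3f3b 390.5 ± 12.01 and H2afx 140.7 ± 21.17 (SD, n = 3 each). H1f0, H2afy and H2afy2 followed at 105.0 ± 6.132, 98.94 ± 15.98 and 97.33 ± 6.066 FPKM, and their ranges overlapped, so that they cannot be ordered. H2afv had 45.47 ± 5.552 and H2afj 5.733 ± 1.076 FPKM. All other neighbours in this order did not overlap between the 3 embryos. In Dnmt3b-/- embryos the order changed at 2 places. H3f3a, with 706.6 ± 77.12 FPKM, stood above H2afz, with 503.2 ± 15.07, and the ranges of the 2 genes did not overlap. H2afx, with 67.26 ± 3.813 FPKM, stood below H1f0, H2afy and H2afy2, which had 88.26 ± 3.523, 87.36 ± 1.253 and 92.12 ± 9.627.

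**Figure D2:**
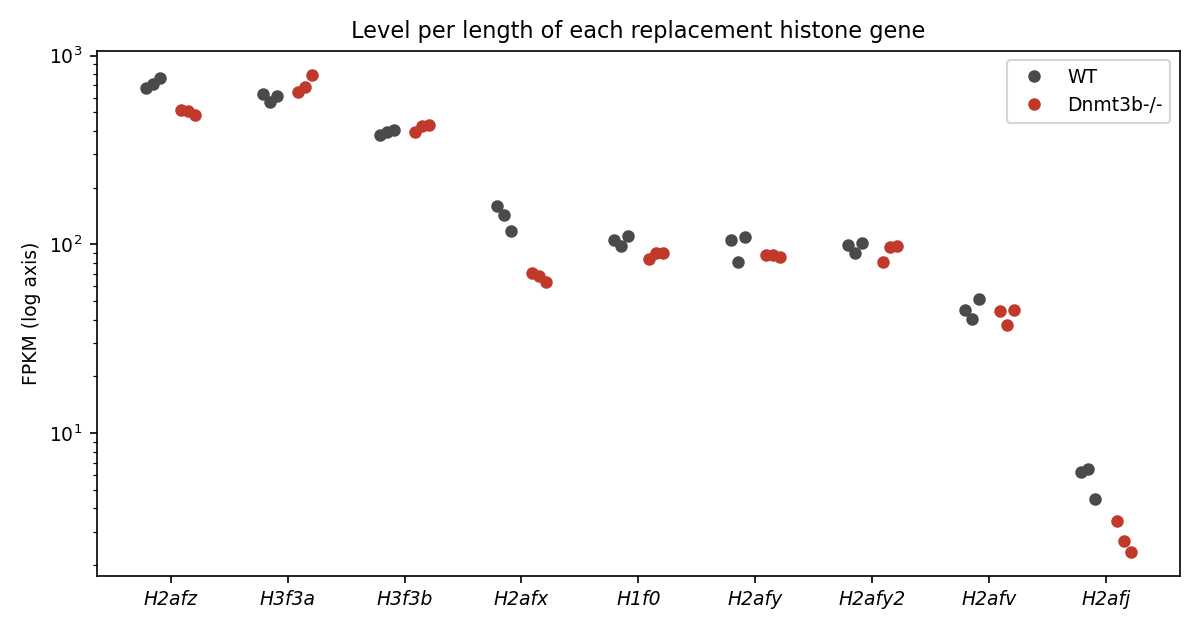
Level per length of each replacement histone variant gene, in FPKM on a log axis, with 1 point for each of 3 WT and 3 Dnmt3b-/- embryos and genes ordered by their WT mean. H2afz leads in WT embryos at 715.6 FPKM, H3f3a leads in Dnmt3b-/- embryos at 706.6 FPKM, and H2afj lies lowest in both.

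The clustered histone genes are the ones from which these variants are set apart. Without the correction for GC content given further on, they fell more widely. Of 65 listed, 9 were at 0 in all embryos and 55 were tested. Of these, 41 were lower and 2 higher, against 18.1% and 17.6% of all tested genes, and 12 were not called. Their median log2 fold change was -0.84. With a fold change above 2, 20 were lower, against 3.78% of all genes. How reads with several matches were counted is not given, so whether the genes at 0 are silent cannot be told from these counts. The largest decreases were those of 2 H4 genes, Hist1h4i with a log2 fold change of -2.64 (adjusted p = 0.00355 by edgeR) and Hist1h4j with -2.24 (adjusted p = 0.000734). The value of Hist1h4i rests on WT embryo 3, where it had 4539 normalized counts, while WT embryos 1 and 2 had 1519 and 1298. Without that embryo the log2 fold change was -1.85 (adjusted p = 0.00158 by edgeR), and 5 clustered genes then had a larger decrease. Hist2h2bb and Hist1h2ak were the 2 called higher, with log2 fold changes of 0.52 and 0.72 (adjusted p = 0.00342 and 0.00168 by edgeR). Hist1h4d, an H4 gene with one of the largest mean counts, had a log2 fold change of -0.52 (adjusted p = 0.0181 by edgeR). Its adjusted p was 0.0501 without WT embryo 3, 0.0737 without Dnmt3b-/- embryo 2 and 0.0586 without Dnmt3b-/- embryo 3, and with the GC correction it turned to 0.09 (adjusted p = 0.52 by edgeR). By type the median was -0.99 for 5 H1 genes, -0.62 for 13 H2A genes, -0.85 for 16 H2B genes, -0.70 for 10 H3 genes and -1.49 for 11 H4 genes. H2afx, the member with the stem loop, fell as far as many of them: 19 of the 55 clustered genes had a larger decrease. The other 8 members lay between -1.02 and 0.23.

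**Figure D3:**
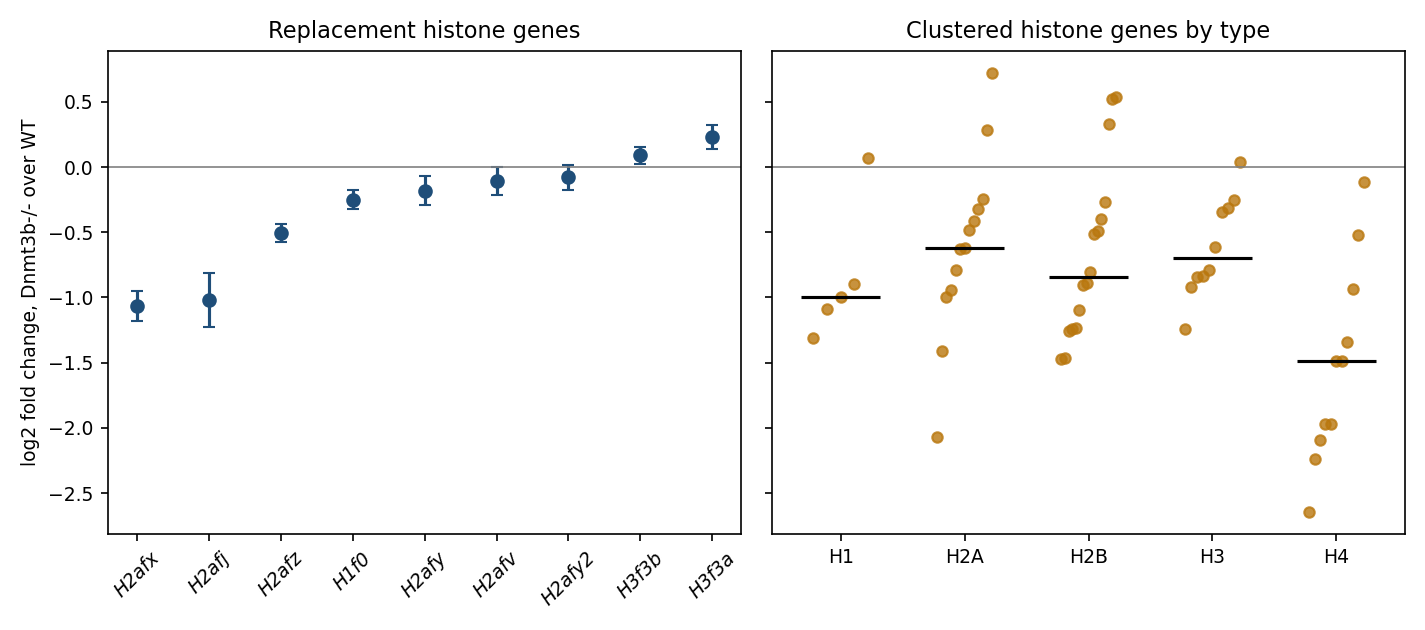
Log2 fold change between Dnmt3b-/- and WT embryos for the 9 replacement histone variant genes, with the SE as bars, beside the 55 tested clustered histone genes, 1 point each with a line at the median of their type. Hist1h4i lies lowest at -2.64, H2afx and H2afj lie lowest among the members at -1.06 and -1.02, and H3f3a lies highest among them at 0.23.

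The share of the replacement genes among the histone transcripts of their type differed between the genotypes, but its direction depended on the type and, for H3.3, on the correction for GC content given further on. The H3.3 genes made up 24.9, 26.0 and 29.3% of the summed FPKM of the H3 genes in WT embryos and 32.7, 37.4 and 39.9% in Dnmt3b-/- embryos. All Dnmt3b-/- values lay above all WT values. Of the 10 tested clustered H3 genes 7 were lower, against 18.1% of all genes, while neither H3.3 gene was called. H1f0 made up 2.73, 2.63 and 2.77% of the H1 genes in WT embryos and 3.29, 3.65 and 3.90% in Dnmt3b-/- embryos, also without overlap, although its own level was lower. The 6 H2A variant genes went the other way, from 32.7, 33.5 and 38.5% of the H2A genes in WT embryos to 30.1, 31.2 and 29.8% in Dnmt3b-/- embryos. The means were 34.9 ± 3.1% and 30.4 ± 0.71% (SD, n = 3 each), and the ranges did not overlap. These shares add up members and are given with no test. Clustered H3 and H2A genes at 0 in all embryos add nothing to these totals, and whether they are silent was not tested. Summed over members, the level was 2990 to 3200 CPM in WT and 2740 to 2970 in Dnmt3b-/- embryos, while that of the clustered genes was 11000 to 11600 and 7030 to 7900.

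**Figure D4:**
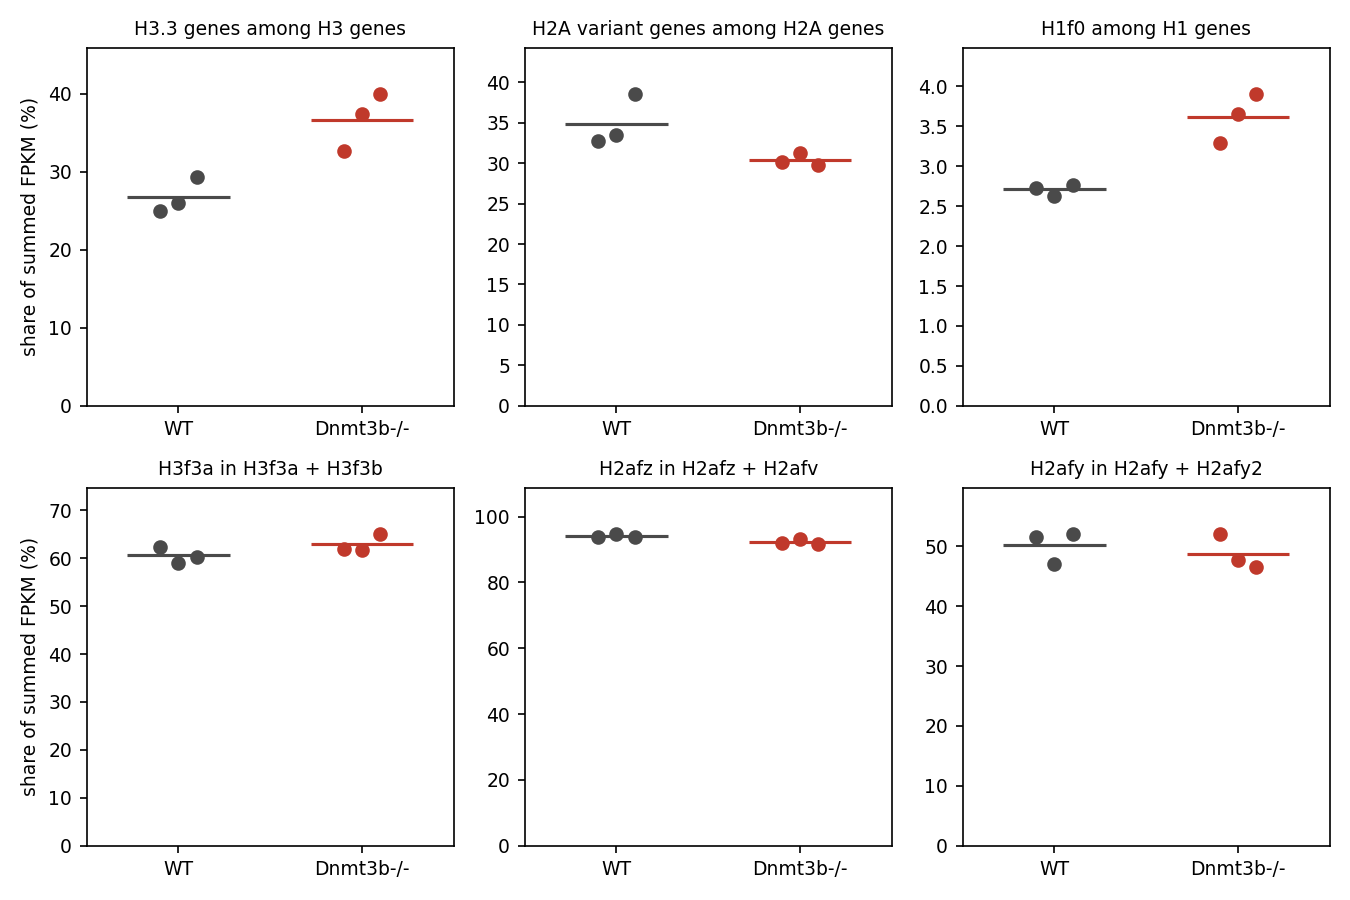
Share in percent of summed FPKM, with 1 point for each of 3 WT and 3 Dnmt3b-/- embryos and a line at the mean, for the replacement variant genes among all H3, H2A and H1 genes (top row) and for the first gene of each paralog pair (bottom row). The Dnmt3b-/- embryos lie above the WT embryos for H3.3 (means 36.7 against 26.7%) and H1f0 (3.61 against 2.71%), and below them for the H2A variants (30.4 against 34.9%), and the H3.3 direction turns with a correction for GC content and length (28.7 against 34.1%).

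GC content differed between the members and did not strictly order their fold changes. The 4 members called lower had an exonic GC content of 62.3% (H2afx), 54.5% (H2afj), 54.4% (H1f0) and 48.4% (H2afz). The members not called had 52.8% (H2afy2), 52.5% (H2afy), 47.2% (H2afv), 44.4% (H3f3a) and 41.2% (H3f3b). H2afj and H1f0 were nearly equal in GC content but had log2 fold changes of -1.02 and -0.25. The median GC content was 52.5% over the members, 60.3% over the clustered genes and 50.3% over all tested genes. With a correction for GC content and exonic length fitted in each library, 3 of the 4 calls held: H2afx had a log2 fold change of -0.45 (adjusted p = 0.0161 by edgeR), H2afj -0.83 (adjusted p = 0.0173) and H2afz -0.66 (adjusted p = 0.000701). H1f0 was no longer called at -0.06 (adjusted p = 0.629). The direction of the H3.3 genes turned, to -0.11 for H3f3a (adjusted p = 0.324) and -0.42 for H3f3b (adjusted p = 0.00153), so H3f3b was then called lower. H2afv and H2afy2 moved to -0.32 (adjusted p = 0.082) and -0.01 (adjusted p = 0.968), and with the replicate number as a block beside the correction H2afv was called lower at -0.31 (adjusted p = 0.0369 by edgeR). The median of the clustered genes was -0.28 under this correction, with 26 lower and 11 higher. Over all 15057 genes tested with it the median was -0.08, with 2358 lower and 1660 higher. Of the 9 members 4 were lower under the correction, beside 26 of the 55 clustered genes. The wider fall of the clustered genes thus depends on leaving the correction out. The cause was not tested, and the directions of H3f3a and H3f3b depend on this choice. The shares of summed FPKM were computed again with the same correction, which was added after seeing the data. The share of the H3.3 genes then turned, to 33.2, 32 and 37% in WT embryos and 27.9, 28.9 and 29.2% in Dnmt3b-/- embryos, without overlap. The share of the H2A variant genes kept its direction and differed more, with 39.8, 37.9 and 44.5% against 26.7, 25.7 and 23.5%. That of H1f0 was 3.00, 2.83 and 3.06% against 3.11, 3.37 and 3.58%, still higher in Dnmt3b-/- embryos by a smaller step. The differences in the log2 ratio of the paralog pairs kept their signs, at 0.31 for H3f3a over H3f3b, -0.35 for H2afz over H2afv and -0.10 for H2afy over H2afy2.

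**Figure D5:**
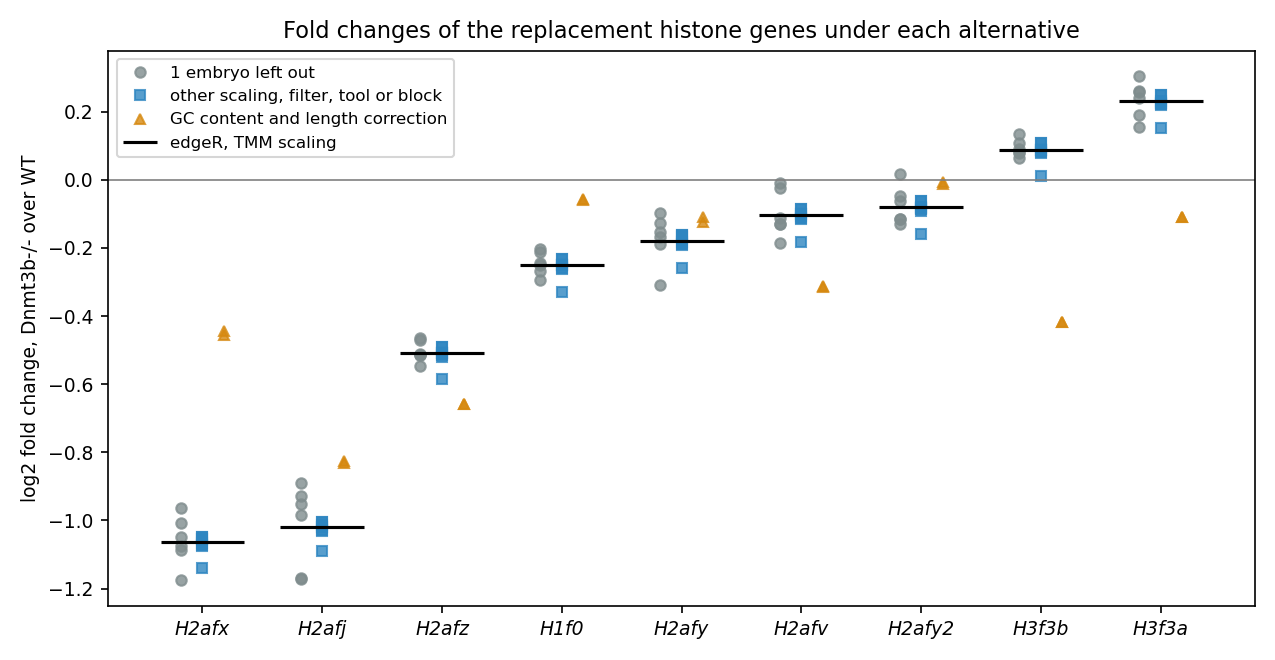
Log2 fold change of each replacement histone variant gene as a black line, with its 16 alternatives as circles (1 embryo left out), squares (other scaling, filter, tool or block) and triangles (GC content and length correction). H2afx, H2afj, H2afz, H1f0, H2afv and H2afy lie below 0 in all 16, and both H3.3 genes lie below 0 with the correction for GC content and length.

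Genes that handle histones or their transcripts, not only those of these variants, were read from 5 lists of chaperones, readers and processing factors. Over these lists 9 of 53 tested genes were lower (17.0%, against 18.1% of all genes) and 19 were higher (35.8%, against 17.6% of all genes). For the deposition of H3.3, 3 of 9 genes were higher and 3 lower. Atrx and Dek, an ATPase of the DAXX complex and an H3.3-binding factor, rose by 0.66 (adjusted p = 0.00199 by edgeR) and 0.78 (adjusted p = 0.00277) on the log2 scale, and Ubn1, a HIRA partner, by 0.45 (adjusted p = 0.00682). Daxx, the H3.3 chaperone itself, fell by 0.66 (adjusted p = 0.00216 by edgeR), Hira by 0.27 (adjusted p = 0.0239) and Cabin1 by 0.34 (adjusted p = 0.0411). For H2A.Z exchange, 1 of 12 tested genes was higher and 4 were lower. The higher one was Anp32e, which removes H2A.Z (0.35, adjusted p = 0.0316 by edgeR), and among the lower ones were the helicase Ruvbl2 (-0.33, adjusted p = 0.016) and Vps72 (-0.33, adjusted p = 0.0279), which binds H2A.Z. The 4 lower calls rest on single embryos: the list had no lower call without WT embryo 3, Dnmt3b-/- embryo 2 or Dnmt3b-/- embryo 3, and it had 1 without WT embryo 1, 2 without Dnmt3b-/- embryo 1 and 3 without WT embryo 2. With the replicate block 1 was lower. The call of Anp32e was lost without WT embryo 1, WT embryo 2, Dnmt3b-/- embryo 2 or Dnmt3b-/- embryo 3. It was also lost with scaling by total counts.

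For H2A.X signalling, 4 of 12 genes were higher and 1 was lower. Mdc1, which binds phosphorylated H2A.X, rose by 0.41 (adjusted p = 0.00946 by edgeR) and the ubiquitin ligase Rnf168 by 0.49 (adjusted p = 0.00298), while Trp53bp1, a reader at DNA breaks, fell by 0.34 (adjusted p = 0.0146). Of 10 general histone chaperones 7 were higher and 1 was lower, with Nasp at 0.83 (adjusted p = 0.00245 by edgeR) and Chaf1a, of the replication-coupled assembly factor, at -0.33 (adjusted p = 0.00432). Of 10 tested genes of stem loop processing, 4 were higher and the other 6 were not called. Among the higher ones was Slbp, which binds the stem loop, at 0.41 (adjusted p = 0.00396 by edgeR). The count of 9 lower genes over the 5 lists fell to 3 without WT embryo 1 or Dnmt3b-/- embryo 2, to 4 without WT embryo 3 and to 5 without Dnmt3b-/- embryo 3. With the GC correction the 4 higher stem loop processing genes lost their call and 1 gene of that list was lower, and 1 H3.3 deposition gene was higher and 2 were lower. Under it 1 H2A.Z exchange gene was higher and 2 lower, 4 H2A.X signalling genes were higher and 4 lower, and 5 general chaperones were higher while Chaf1a lost its call. Of 16 proliferation genes 4 were higher and 4 lower, against 17.6% and 18.1% of all genes. Their summed level was 6580 to 6880 CPM in WT and 6670 to 6920 in Dnmt3b-/- embryos.

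How alike the members were over the 6 embryos is given as Pearson's r of their log2 CPM, as a description, since the groups themselves set much of it. H2afj and H2afx were the most alike pair, with r = 0.969. H2afz was most like H2afx (r = 0.911), H1f0 most like H2afz (r = 0.898), and H3f3a and H3f3b were most like each other (r = 0.762). Among 8870 genes averaging 500 counts or more, the smallest root mean square difference from the pattern of H2afx was that of Col4a6 (0.063), a collagen gene, followed by the clustered histone genes Hist1h2ac (0.070) and Hist1h2ah (0.077). Nearest to H2afj were Notch2 (0.071) and Col4a2 (0.077), and nearest to H2afz was Rps7 (0.027), a ribosomal protein gene.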

How the data were processed

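RNA-Seq of 3 WT and 3 Dnmt3b-/- E8.5 embryos was analysed. The authors aligned reads to mm10 with TopHat2 2.0.12 and made counts over RefSeq exons with HTSeq 0.6.0, which they deposited as raw counts. The RefSeq release, the strand setting and the treatment of reads with several matches are not given in the sources used here. The authors also deposited a normalized signal, a log2 fold change and p-values from DESeq2 1.4.5, which were not used.

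The 15114 genes averaging 10 counts or more were tested by quasi-likelihood in edgeR 4.0.16 (TMM, R 4.3.3), adjusted by Benjamini-Hochberg and called below 0.05. The SE is the size of the log2 fold change divided by the square root of F. Normalized counts are raw counts divided by the effective library of the embryo and multiplied by the mean total of counts. At the totals of 41489332 to 58470286, 3 counts equal 2.37 to 3.49 normalized counts, for counting error only. Exons were matched by symbol or older symbol for 99.2% of genes (GRCm38.p6), 3 and 6 members respectively. Embryos are separate animals. The members and gene lists were chosen with earlier results of these data known. The text names every member, for clustered genes those among the 2 most abundant and the 2 with the largest change in each direction, and for other lists some of the 6 called genes of smallest adjusted p. On simulated counts of 14953 genes, 69% of 100 2-fold and 99% of 100 4-fold changes were recovered, and 20 unchanged genes were called. The changed genes were drawn from those averaging 100 counts or more. Alternatives were other scalings, filters, DESeq2 1.42.0, limma 3.58.1, a replicate block, a GC and length correction (splines with 5 degrees of freedom) and each embryo left out. The correction was added for shares and paralog ratios after seeing the data.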

Additional observations from a re-analysis of the deposited data

How the results depend on the processing

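H2afx, H2afj and H2afz were lower at an adjusted p below 0.05 in all 16 alternatives and H1f0 in 8 of 16. With DESeq2 1 member was higher (H3f3a), and with 1 embryo left out 0 to 1. With a fold above 2, 0 members were lower under the GC and length correction, with or without the replicate block, and 0 to 2 with 1 embryo left out. Under that correction 26 clustered genes were lower (23 with the block) and 11 higher in both. Partner genes that were higher numbered 11 (10 with the block), and lower ones 5 with the replicate block alone and 3 to 8 with 1 embryo left out. H3f3a turned to -0.109 (-0.108 with the block), H3f3b to -0.417 in both, and H2afy2 to 0.018 without Dnmt3b-/- embryo 1 (-0.130 to 0.018 over the embryos left out). With the same correction, added for the shares after seeing the data, the share of the H3.3 genes turned from 10 to -5.4 percentage points (Dnmt3b-/- minus WT), while that of the H2A variants moved from -4.5 to -15.4 and that of H1f0 from 0.90 to 0.39. The cause was not tested. Over all genes the correction gave 2358 lower and 1660 higher, against 2741 and 2654, and 184 and 265 with a fold above 2, against 571 and 320. Total counts gave 3200 and 2143 and moved the median of all genes to -0.106. The labels do not say whether a replicate number marks a litter, so same-numbered embryos were not treated as pairs in the main fit. Their deviations correlated at -0.056, -0.155 and -0.012, and 0 embryos correlated best with their own number. With 3 embryos of each genotype, such correlations cannot decide whether the numbers mark pairs. The replicate block gave 4411 calls against 5395, and under it H1f0 had an adjusted p of 0.0637.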

Other observations

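Histone variant genes outside the 9 also differed between the genotypes. Cenpa, the H3 variant of centromeres, had 3656 ± 69.64 normalized counts in WT and 2226 ± 155.3 in Dnmt3b-/- embryos (SD, n = 3 each), and its log2 change was -0.72 (adjusted p = 0.000709 by edgeR). The testis variants Hist1h2ba and Hist1h2aa averaged 0 and 1.17 normalized counts in WT embryos and 62.7 and 59.3 in Dnmt3b-/- embryos. Of 12 such genes, 5 were at 0 in all embryos and 5 were tested. Of the tested ones 2 were higher and 1 was lower, against 17.6% and 18.1% of all genes.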
